A study of Rattus norvegicus with 2 samples.

Results

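The 9 genes described here encode receptors and surface proteins by which tissue macrophages are recognised: *Cd68*, *Msr1*, *Adgre1*, *Mrc1*, *Cd163*, *Lyve1*, *Havcr2*, *Ms4a6a* and *Trem2*. They were taken by symbol from the 25399 genes of the table, where in this order they are ENSRNOG00000037563, ENSRNOG00000012779, ENSRNOG00000046254, ENSRNOG00000018251, ENSRNOG00000010253, ENSRNOG00000026902, ENSRNOG00000031443, ENSRNOG00000020991 and ENSRNOG00000013578. The cells came from hearts of Sprague-Dawley rats aged 1 to 3 days, of both sexes and pooled, and had been enriched on a Percoll gradient for intrinsic cardiac adrenergic (ICA) cells, which make norepinephrine within the heart. They were then plated and cultured. In culture they were exposed to LPS (lipopolysaccharide, a component of the bacterial outer membrane) at 1 µg/mL or to saline (control) for 2 h. A single library was made per condition, of 11531 cells for control and 12689 for LPS, so the treatment and the library cannot be told apart and no test of the treatment was possible.

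Macrophages carry receptors that bind and take up particles, modified lipoproteins, dying cells and glycans, and which of these receptors they carry differs with the tissue and with the state of the cell. MSR1 and CD163 are scavenger receptors, of modified lipoproteins and of haemoglobin-haptoglobin complexes, and MRC1 (the mannose receptor, CD206) is an endocytic lectin. TREM2 senses lipids and signals through the adaptor TYROBP, HAVCR2 (TIM-3) binds phosphatidylserine and galectin-9, CD68 is a glycoprotein of late endosomes and lysosomes, ADGRE1 (F4/80) is an adhesion G protein-coupled receptor, MS4A6A is a membrane protein of the MS4A family, and LYVE1 is a hyaluronan receptor of lymphatic vessels, some other endothelium and some resident macrophages.

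Levels are counts of unique molecular identifiers (UMIs) of a gene per 1000000 UMIs of a class (CPM), summed over the cells of 1 of the authors' 11 clusters in 1 library. Intervals are at 95% and cover counting error only. Cluster 6, named Macrophages by the authors, held 281 control and 291 LPS cells, with 3114592 and 2485786 UMIs in all and a median of 8846 and 6900 UMIs per cell. When every cell was thinned to 3000 UMIs, *Tyrobp*, the adaptor of several myeloid receptors, was detected in 98.9% of this cluster in the control and in 96.6% in the LPS library. Fibroblast RNA was also present: the 9 fibroblast marker genes summed to 33.4% of their level in fibroblast cluster 0 in the control macrophages and to 27.8% in the LPS macrophages, and its part in the results was not tested beyond leaving out the cells richest in it. The libraries shared 194 barcodes, of which 0 were in cluster 6 of both, and the 2 control and 8 LPS cells without a cluster held 0 UMIs of the 9 genes.

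Cluster 6 was the main source of 7 of the genes, while *Lyve1* was mainly in endothelial cells and *Cd163* was almost undetected. Of all UMIs of a gene in the control and the LPS library, cluster 6 held 84.6% and 89.3% for *Havcr2*, 85.2% and 86.4% for *Ms4a6a* and 79.2% and 86.1% for *Trem2*. The shares were 71.9% and 79.5% for *Adgre1*, 61.3% and 64.0% for *Msr1* and 46.9% and 57.7% for *Mrc1*. For *Lyve1* they were 0.918% and 0.613%. The list therefore does not behave as 1 group of macrophage markers in these cells.

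**Figure D1:**
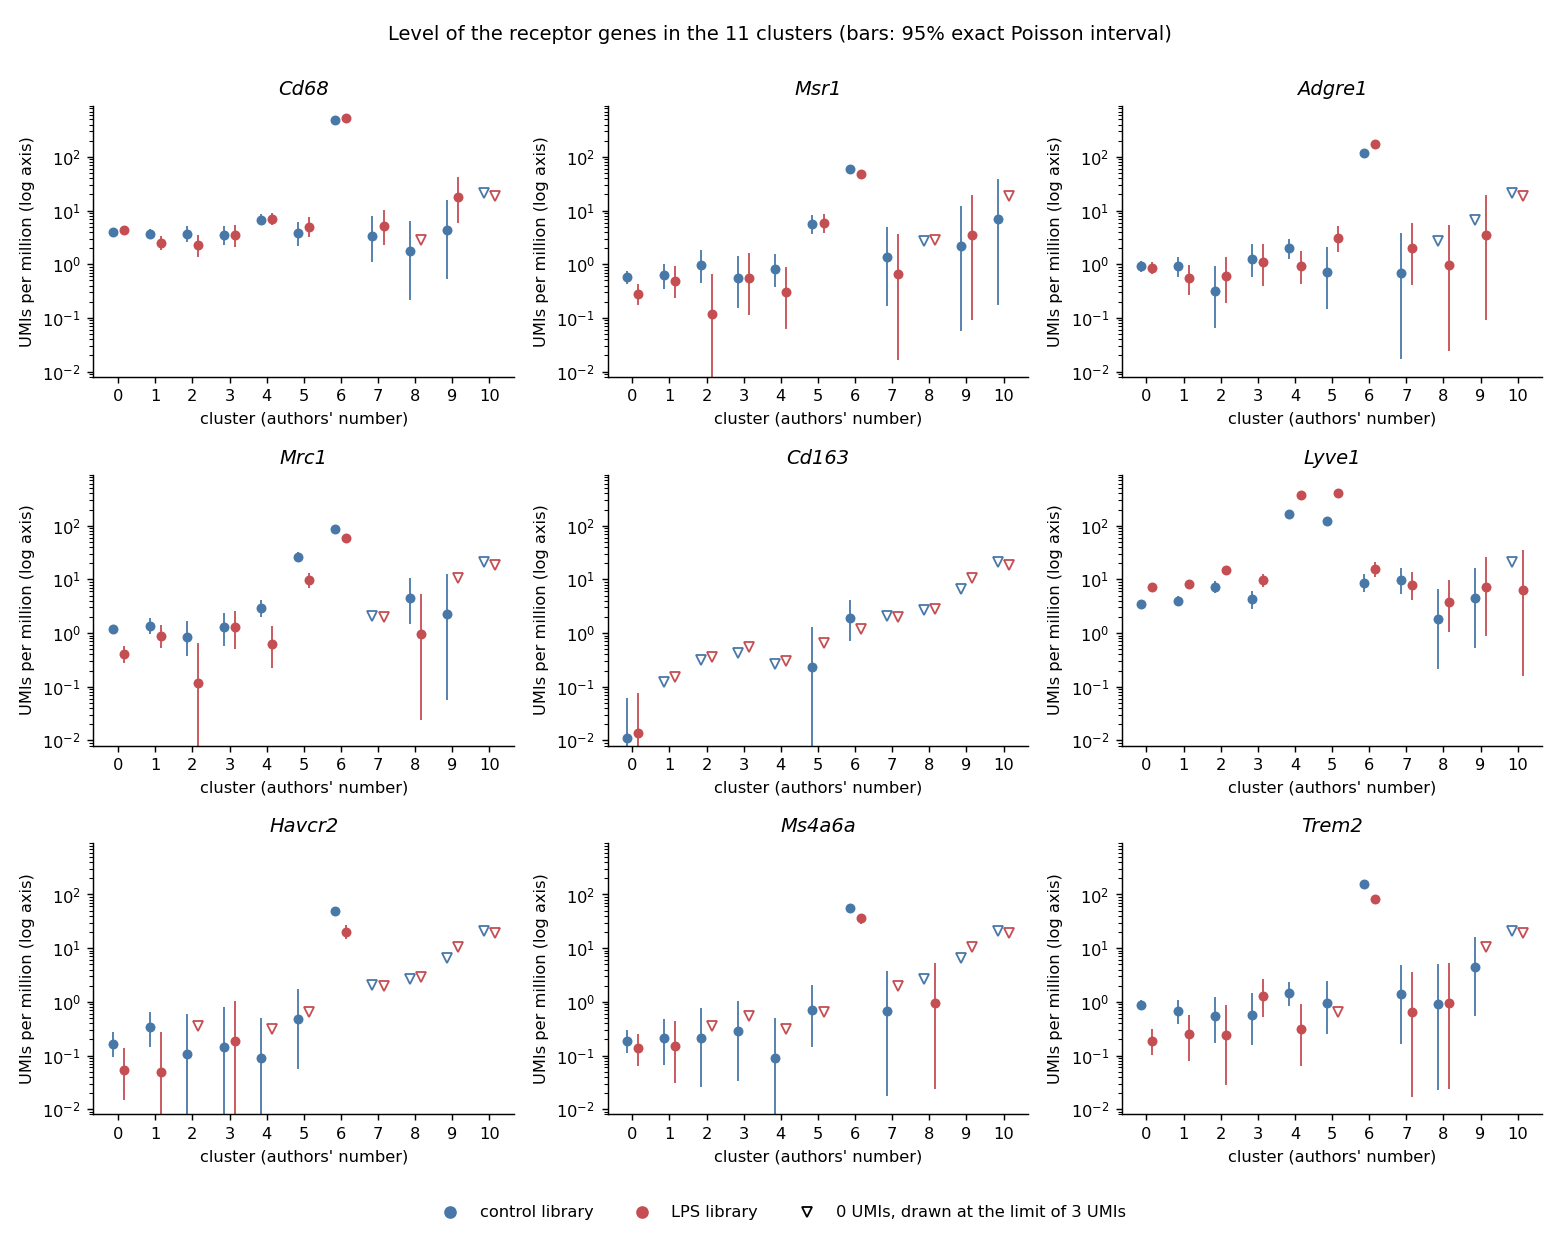
Level of each gene (CPM of the class, log axis) in the 11 clusters of the control and LPS libraries, with 95% exact Poisson intervals. Open triangles stand at the limit of 3 UMIs where no UMI was counted. *Cd68*, *Msr1*, *Adgre1*, *Mrc1*, *Havcr2*, *Ms4a6a* and *Trem2* were highest in cluster 6, *Lyve1* in clusters 4 and 5.

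*Cd68* was present in macrophages at 496 CPM (471 to 521) in the control and 531 (502 to 560) in the LPS library, from 1544 and 1319 UMIs. The LPS to control ratio was 1.07 (0.994 to 1.15), an interval that includes 1, and 1.32 (1.23 to 1.42) when scaled to the median gene, which does not. The next cluster in the order with over 20 UMIs per library was endothelial cluster 4, at 6.83 (5.38 to 8.55) and 6.99 (5.42 to 8.86) CPM. It stood above fibroblast cluster 0, at 4.04 (3.64 to 4.48) and 4.41 (3.94 to 4.91), beyond the counting error, whereas clusters 0 and 1 overlapped in the control library. *Cd68* was thus between 0.426% and 1.38% of its macrophage level in clusters 0 to 5 of either library.

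Of the 7 genes found mainly in macrophages, *Adgre1* had the highest level in the LPS library relative to the control. It had 365 control and 438 LPS UMIs in cluster 6, that is 117 CPM (105 to 130) against 176 (160 to 194), a ratio of 1.5 (1.31 to 1.73). The share of macrophages with an *Adgre1* UMI after thinning was 25.3% (20.3 to 30.8) in the control and 41.4% (35.7 to 47.3) in the LPS library, with means over all possible draws of 29.0% and 40.4%. The intervals do not overlap in this draw, but they do at 1500 UMIs per cell, with 20.3% (15.7 to 25.5) and 25.8% (20.8 to 31.2), and at 5000, with 37.4% (31.5 to 43.5) and 45.3% (38.8 to 51.9). In fibroblast cluster 0, which should lack the gene, the thinned shares were 0.242% and 0.228%. Without thinning the macrophage shares were 53.7% (47.7 to 59.7) and 62.9% (57.1 to 68.5), and up to 8 control and 11 LPS UMIs came from a single cell.

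The scavenger receptor *Msr1* had 187 control and 119 LPS UMIs in macrophages, or 60.0 CPM (51.7 to 69.3) against 47.9 (39.7 to 57.3). The ratio of 0.797 (0.628 to 1.01) includes 1, and the thinned shares of 18.9% (14.5 to 23.9) and 15.2% (11.3 to 19.8) overlap. No difference in *Msr1* between the libraries was detectable in macrophages at this depth.

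*Cd163* could not be compared. It had 6 UMIs in the control macrophages, which came from 3 cells, and 0 in the LPS macrophages. The LPS level of 0 CPM has an interval that reaches 1.48 CPM. The control level of 1.93 CPM has an interval of 0.707 to 4.19, and the 2 intervals overlap. In the whole libraries 8 control and 1 LPS UMIs of *Cd163* were counted.

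*Mrc1*, the mannose receptor, had 270 control and 146 LPS UMIs, or 86.7 CPM (76.7 to 97.7) against 58.7 (49.6 to 69.1). The ratio was 0.678 (0.550 to 0.832). With the class total taken without the 100 genes of largest gain it was 0.80 (0.65 to 0.99), still below 1. Scaled to the median gene it was 0.836 (0.679 to 1.03), an interval that includes 1. With cells taken from any cluster by at least 4 general myeloid genes it was 0.890 (0.725 to 1.09), which also includes 1. That choice added 39 control and 3 LPS cells from outside cluster 6. Kept to cluster 6, cells with at least 4 such genes gave a ratio of 0.681. The thinned shares of 19.9% (15.4 to 25.1) and 16.6% (12.5 to 21.3) overlap, the mean over all possible draws being 22% and 14.7%, while the unthinned shares were 47.0% and 29.9% at the unequal depths of the libraries.

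Under the class total, the largest relative differences in macrophages were in *Havcr2* and *Trem2*. *Havcr2* had 154 control and 50 LPS UMIs, or 49.4 CPM (41.9 to 57.9) against 20.1 (14.9 to 26.5), a ratio of 0.407 (0.290 to 0.563). *Trem2* counted 494 control and 204 LPS UMIs, or 159 CPM (145 to 173) against 82.1 (71.2 to 94.1), a ratio of 0.517 (0.437 to 0.610). Both genes were lower in the LPS library by more than the counting error. Scaled to the median gene, the ratios were 0.50 (0.36 to 0.70) for *Havcr2* and 0.64 (0.54 to 0.75) for *Trem2*. On that scale *Lyve1*, at 2.23, and *Adgre1*, at 1.86, differed by more than *Trem2*. With only macrophages under 1% fibroblast marker UMIs, the log2 ratios of *Havcr2* and *Trem2* were -1.35 and -1.03, against -1.30 and -0.95 in all cells of the cluster. That limit kept 274 of 281 control and 284 of 291 LPS macrophages, so it says little about the part of fibroblast RNA.

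The cells showed the same order. After thinning, 13.9% (10.1 to 18.5) of control and 5.86% (3.45 to 9.22) of LPS macrophages had a *Havcr2* UMI, against 0% and 0.0142% of cluster 0 cells. For *Trem2* the shares were 33.1% (27.6 to 38.9) and 20.3% (15.9 to 25.4), against 0.303% and 0.0712% in cluster 0. Neither pair of macrophage intervals overlaps at 3000 or 5000 UMIs per cell, and both do at 1500. The means over all possible draws were 15.4% and 5.94% for *Havcr2* and 32.9% and 19.6% for *Trem2*. The highest count of *Trem2* in 1 macrophage was 18 in the control and 10 in the LPS library before thinning, and the unthinned shares were 56.2% and 34.0% for *Trem2* and 36.3% and 14.4% for *Havcr2*.

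*Ms4a6a* had 178 control and 89 LPS UMIs in macrophages, or 57.2 CPM (49.1 to 66.2) against 35.8 (28.8 to 44.1). The ratio was 0.626 (0.480 to 0.812), or 0.773 (0.593 to 1.003) when scaled to the median gene, which includes 1. With the class total taken without the 100 genes of largest gain it was 0.74 (0.57 to 0.97), which does not. The thinned share of cells was 17.1% (12.9 to 22) against 8.97% (5.94 to 12.9), the mean over all possible draws being 17.1% and 10.9%. At 5000 UMIs per cell the shares were 26.8% and 19.2%. The unthinned shares were 39.5% and 23.4%, and cluster 0 had a UMI in 0.0758% and 0.0570% of thinned cells. Of its 13 listed MS4A relatives, 10 were in the gene table and 1, *Ms4a7*, had at least 50 UMIs in macrophages, with 125 control and 64 LPS UMIs and a log2 ratio of -0.64. Reads from similar copies in this family could affect the *Ms4a6a* count, which was not tested.

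The differences between the libraries have to be read beside those of all genes. Among the 6385 genes with at least 50 UMIs in macrophages, the median log2 ratio of LPS to control was -0.30, and 12.1% of genes were at least 2-fold lower and 4.81% at least 2-fold higher. The 100 genes picked for the largest gains took 8.23% of the control and 22.8% of the LPS macrophage UMIs, which left a smaller part of the LPS total to all other genes. Molecules per cell were not measured, and the part of this in the ratios was not tested. Of the 9 receptors, 8 had at least 50 UMIs there, with a median log2 ratio of -0.44; 1 was at least 2-fold lower (*Havcr2*), *Trem2* lay just inside the 2-fold line, and 0 were at least 2-fold higher. At a 1.5-fold limit 3 were lower and 2 higher, against 30.3% and 8.79% of all genes. The interval of the ratio lay below 1 for 4 of the 8 (*Mrc1*, *Havcr2*, *Ms4a6a*, *Trem2*), against 41.2% of all genes, and above 1 for 2 (*Adgre1*, *Lyve1*), against 12.7%. Scaled to the median gene, 2 lay below 1 (*Havcr2*, *Trem2*) and 3 above (*Cd68*, *Adgre1*, *Lyve1*). With the class total taken without those 100 genes, 4 lay below 1 and 3 above. The shares of all genes under these scalings were not computed, so these counts have no background beside them. The shares under the class total are near the background or rest on 2 genes, and the count of 2-fold lower receptors ranged from 0 to 3 over the alternatives. The 3 came from 1 thinned draw and from the 1.5-fold limit.

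Relative to the median gene, *Adgre1* stood 0.89 log2 units higher and *Cd68* 0.40 higher, and 91.3% and 76.7% of genes had a lower ratio. *Msr1* lay at the median, 0.02 below it, so that on this scale its value matched the typical gene of the macrophages. *Havcr2* stood 0.98 below the median with 6.58% of genes lower, *Trem2* 0.64 below with 13.5% lower, *Ms4a6a* 0.37 below with 25.1% lower, and *Mrc1* 0.26 below with 31.8% lower. *Lyve1* stood 1.15 above the median with 94.3% of genes lower. With this scaling 0 receptors were 2-fold lower and 1, *Lyve1*, was 2-fold higher. The share of all genes past these limits was not computed with this scaling.

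**Figure D2:**
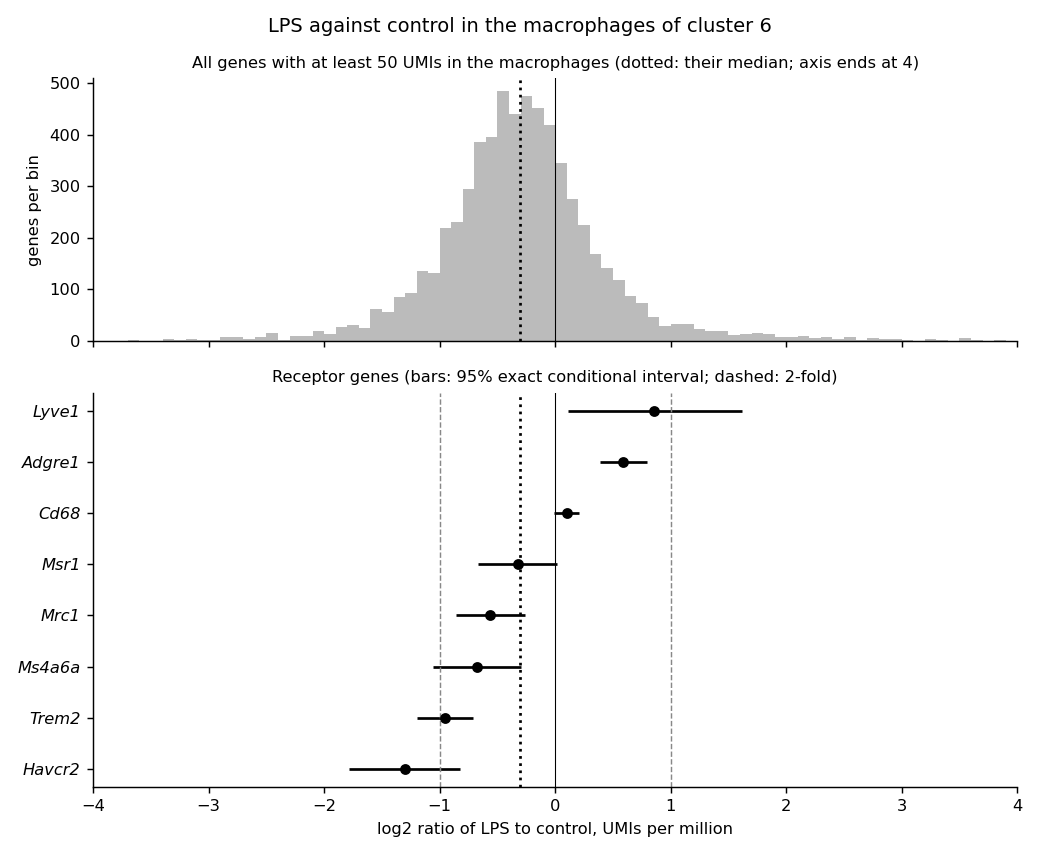
Top, number of genes by log2 ratio of LPS to control in macrophages, for the 6385 genes with at least 50 UMIs, on an axis from -4 to 4. Bottom, the same ratio for the 8 receptor genes with at least 50 UMIs, with 95% exact conditional intervals. *Havcr2* and *Trem2* lie farthest to the left, *Adgre1* and *Lyve1* to the right, and the dotted line marks the median of all genes at -0.30.

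Promoters are shown for the genes with the lowest and highest ratios in macrophages, to set the sequences beside the levels. They run from 250 bases before to 50 bases after the start site in RefSeq (rat build GRCr8), where 8 of the 9 genes had an entry, and *Msr1* is named only. Capitals mark GAGGAA, a core motif bound by PU.1 (the myeloid factor encoded by *Spi1*), or its reverse complement. *Havcr2* is at chr10:31383675-31383974 (plus strand), *Trem2* at chr9:20151730-20152029 (minus strand), *Adgre1* at chr9:2329190-2329489 (plus strand) and *Lyve1* at chr1:174410928-174411227 (minus strand).
Havcr2: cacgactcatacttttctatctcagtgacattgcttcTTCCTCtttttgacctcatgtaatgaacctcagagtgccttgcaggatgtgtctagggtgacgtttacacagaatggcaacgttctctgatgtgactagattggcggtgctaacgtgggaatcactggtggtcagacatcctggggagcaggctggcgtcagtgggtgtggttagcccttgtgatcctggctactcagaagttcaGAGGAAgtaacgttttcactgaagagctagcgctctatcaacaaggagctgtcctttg
Trem2: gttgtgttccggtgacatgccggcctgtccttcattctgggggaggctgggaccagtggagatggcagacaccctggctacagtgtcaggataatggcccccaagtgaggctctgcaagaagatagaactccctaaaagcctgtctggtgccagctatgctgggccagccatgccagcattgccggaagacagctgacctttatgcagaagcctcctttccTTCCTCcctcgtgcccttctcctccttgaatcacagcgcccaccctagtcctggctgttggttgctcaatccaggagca
Adgre1: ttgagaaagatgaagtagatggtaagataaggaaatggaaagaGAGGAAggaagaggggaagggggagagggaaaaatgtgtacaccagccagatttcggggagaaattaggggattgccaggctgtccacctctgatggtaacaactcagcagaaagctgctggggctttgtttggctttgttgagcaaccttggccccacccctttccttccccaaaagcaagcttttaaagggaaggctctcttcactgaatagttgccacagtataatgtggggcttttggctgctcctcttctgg
Lyve1: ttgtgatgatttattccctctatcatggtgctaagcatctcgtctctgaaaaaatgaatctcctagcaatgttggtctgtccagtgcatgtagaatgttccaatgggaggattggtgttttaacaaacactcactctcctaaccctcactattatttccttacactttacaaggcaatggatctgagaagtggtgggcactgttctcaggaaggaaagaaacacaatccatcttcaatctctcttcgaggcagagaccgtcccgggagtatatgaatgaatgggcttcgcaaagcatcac

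The GAGGAA letters, searched on both strands, were in 6 of the 8 promoters against 27.5% of the 27457 promoters in RefSeq. They began at positions -213 and -8 from the start site in *Havcr2*, at -29 in *Trem2*, at -207 in *Adgre1*, at -180 and -35 in *Mrc1*, at -169 and -28 in *Ms4a6a* and at -27 and 5 in *Cd68*. They were not in the *Lyve1* and *Cd163* windows. The NF-kappaB letters (GGG, any 2 bases, then TTTCC) were in 0 of the 8, against 1.51% of all promoters. The AP-1 letters TGANTCA were in 2 (*Cd68*, *Trem2*), against 7.33%, and the letters of the interferon-stimulated response element (GAAA, any 2 bases, then GAAA) were in 1 (*Adgre1*), against 3.77%. Among the promoters shown, the PU.1 letters were in those of *Havcr2* and *Trem2*, lower in the LPS macrophages, and of *Adgre1*, higher there. They were not in that of *Lyve1*, which had the highest ratio in macrophages. Such matches describe the windows and not the binding of a factor.

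At a depth of 3000 UMIs most macrophages had a UMI of only a few of the receptors. After thinning, the median macrophage had a UMI of 2 of the 9 genes in both libraries, none was found in 25 of 281 cells of the control (8.90%) and 28 of 290 of the LPS library (9.66%), and the most in any cell was 6. In cluster 0 the shares without any were 96.9% and 96.1%. Pairs of genes met in the same cell more often, less often or about as often as their separate shares would give. The pairs named are examples, and whether they depart by more than counting error was not tested. *Cd68* and *Mrc1* were both present in 40 control cells against 40.1, and *Ms4a6a* and *Trem2* in 16 against 15.9. In the control library *Msr1* and *Havcr2* were both present in 13 cells against 7.36, and in the LPS library in 1 against 2.58. In the control library *Adgre1* and *Trem2* were both present in 18 cells against 23.5 from their separate shares, *Adgre1* and *Mrc1* in 20 against 14.1, and *Havcr2* and *Trem2* in 17 against 12.9. In the LPS library *Cd68* and *Trem2* met in 54 cells against 45.0, and *Msr1* and *Trem2* in 15 against 8.95. The share of myeloid RNA in each cell was not held fixed in these counts.

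**Figure D3:**
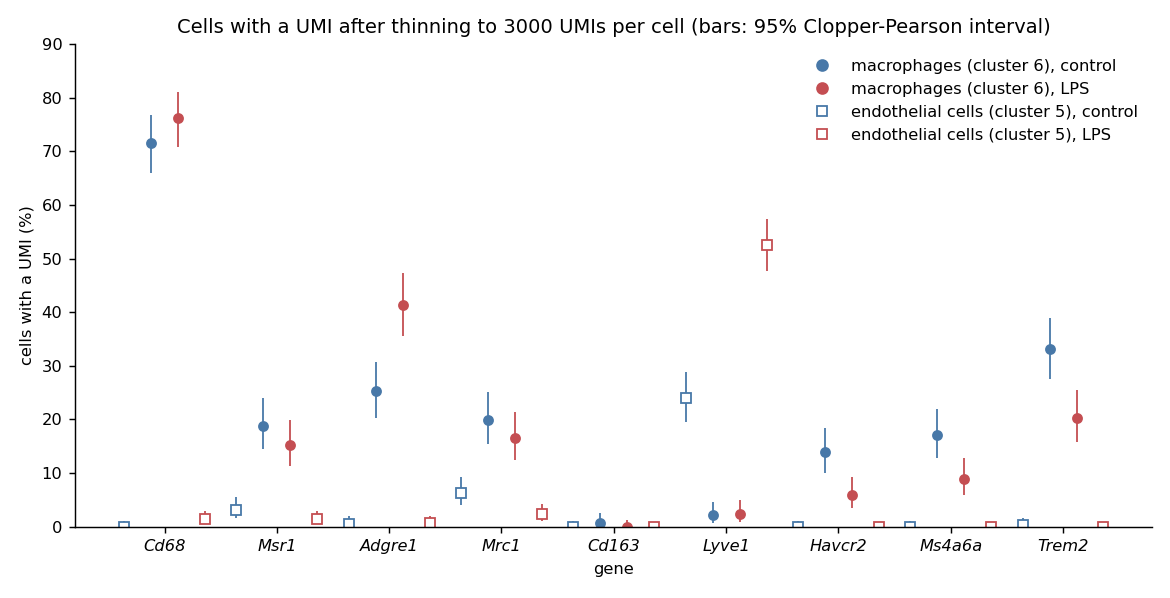
Percentage of cells with a UMI of each gene after thinning every cell to 3000 UMIs, in macrophages (filled circles, cluster 6) and endothelial cells of cluster 5 (open squares), control and LPS, with 95% Clopper-Pearson intervals. In this draw *Adgre1* is higher and *Havcr2*, *Ms4a6a* and *Trem2* are lower in LPS macrophages, and *Lyve1* is at 24% and 52.5% in cluster 5.

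*Lyve1* marked the endothelial clusters. In cluster 4 it had 1878 control and 3562 LPS UMIs, or 169 CPM (161 to 177) against 366 (354 to 378), a ratio of 2.17 (2.05 to 2.29). In cluster 5 the sums were 511 and 1855 UMIs, or 120 (110 to 131) against 408 (389 to 427), a ratio of 3.39 (3.07 to 3.75). The order of the 2 clusters therefore changed, with cluster 4 above cluster 5 in the control and below it in the LPS library, each beyond the counting error. Clusters 4 and 5 held 63.9% and 17.4% of the control *Lyve1* UMIs and 56.0% and 29.2% of those in the LPS library.

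The share of endothelial cells with the gene was also higher. After thinning, 32.6% (29.2 to 36.2) of control and 52.8% (49.2 to 56.3) of LPS cells of cluster 4 had a *Lyve1* UMI, and 24% (19.6 to 28.8) and 52.5% (47.7 to 57.3) in cluster 5. Unthinned, the shares were 66.4% and 73.6% in cluster 4 and 56.9% and 74.3% in cluster 5, the LPS cells being the shallower in both. All 4 thinned shares stood far above those of fibroblast cluster 0, at 0.879% and 2.05%. Of the genes with at least 50 UMIs, 97.7% had a lower ratio than *Lyve1* in cluster 4 and 98.3% in cluster 5. At least 2-fold higher were 2.63% of 9492 genes in cluster 4 and 4.19% of 7824 in cluster 5.

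All 6 listed markers of lymphatic vessels were counted in endothelial cells. *Prox1*, the transcription factor of lymphatic endothelium, had 19 control and 11 LPS UMIs in cluster 4 and 16 and 12 in cluster 5. *Mmrn1* had 3 and 8 UMIs in cluster 4 and 0 in cluster 5, and *Ccl21* 88 and 184 in cluster 4 and 0 in cluster 5. *Flt4*, the receptor VEGFR3, had 249 and 199 UMIs in cluster 4 and 45 and 31 in cluster 5. *Reln* had 25 and 33 UMIs in cluster 4 and 26 and 49 in cluster 5. *Pdpn*, which fibroblasts also express, had 353 and 310 UMIs in cluster 4, 111 and 75 in cluster 5, and 8960 and 8262 in fibroblast cluster 0. In macrophages *Pdpn* had 871 and 710 UMIs, or 280 and 286 CPM. Its level was 31.7 and 31.8 CPM in cluster 4 and 99.0 and 112 CPM in cluster 0.

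In macrophages *Lyve1* had 27 control and 39 LPS UMIs, or 8.67 CPM (5.71 to 12.6) against 15.7 (11.2 to 21.4), a ratio of 1.81 (1.08 to 3.07). The level was close to that of cluster 2, which the authors left without a name, at 7.26 (5.64 to 9.20) and 14.9 (12.4 to 17.7), and the intervals overlap in both libraries. It was 5.14% and 4.29% of the cluster 4 level, within the range of 6 endothelial marker genes measured the same way in macrophages, which were at 2.87% to 14.3% and 3.44% to 28.9%. *Lyve1* was also about 2-fold higher in the LPS library in several clusters that express little of it: the ratio was 2.13 in cluster 0, 2.05 in cluster 2 and 2.28 in cluster 3. In fibroblast cluster 7, with 14 control and 12 LPS UMIs, it was 0.823 (0.348 to 1.92), an interval that includes 1. The thinned shares in macrophages were 2.14% and 2.41%. The difference between the libraries turned, to a log2 ratio of -0.60, with cells of any cluster taken by at least 4 general myeloid genes. Kept to cluster 6, cells with at least 4 such genes were at 0.86. The difference also turned, to -0.12, when the cells of highest Scrublet score were left out. That step kept 233 of 281 control and 251 of 291 LPS macrophages and does not identify doublets here.

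*Mrc1* had a second site, in cluster 5. It had 112 control and 44 LPS UMIs there, or 26.4 CPM (21.7 to 31.7) against 9.67 (7.03 to 13), a ratio of 0.367 (0.253 to 0.524). This was 30.4% and 16.5% of the macrophage level, while 15 general myeloid genes summed to 0.629% and 0.664% of theirs in the same cells, with single genes up to 2.53% and 4.10%. Without every cell that had a UMI of such a gene the log2 ratio was -1.59, against -1.45 with all cells. The *Mrc1* of cluster 5 was thus well above the myeloid RNA found there.

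The thinned share of cluster 5 cells with an *Mrc1* UMI was 6.29% (3.98 to 9.36) in the control and 2.29% (1.11 to 4.18) in the LPS library, and the unthinned shares were 21.1% and 7.67%. Of 7824 genes there 4.41% were at least 2-fold lower, and 1.57% had a lower ratio than *Mrc1*. Clusters 4 and 0 also held fewer *Mrc1* UMIs in the LPS library, with 32 against 6 and 106 against 30. The ratios of CPM were 0.214 (0.0732 to 0.520) in cluster 4 and 0.347 (0.223 to 0.525) in cluster 0. The *Mrc1* levels were 3.32% and 1.05% of the macrophage level in cluster 4, and 1.35% and 0.693% in cluster 0. The 15 general myeloid genes were also lower there, summing to 65.8 and 48.2 CPM in cluster 4 and 46.0 and 25.7 in cluster 0. Whether this *Mrc1* is from the cells of these clusters was not tested. *Mrc1* and *Lyve1* thus differed between the libraries in opposite directions in endothelial cluster 5.

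**Figure D4:**
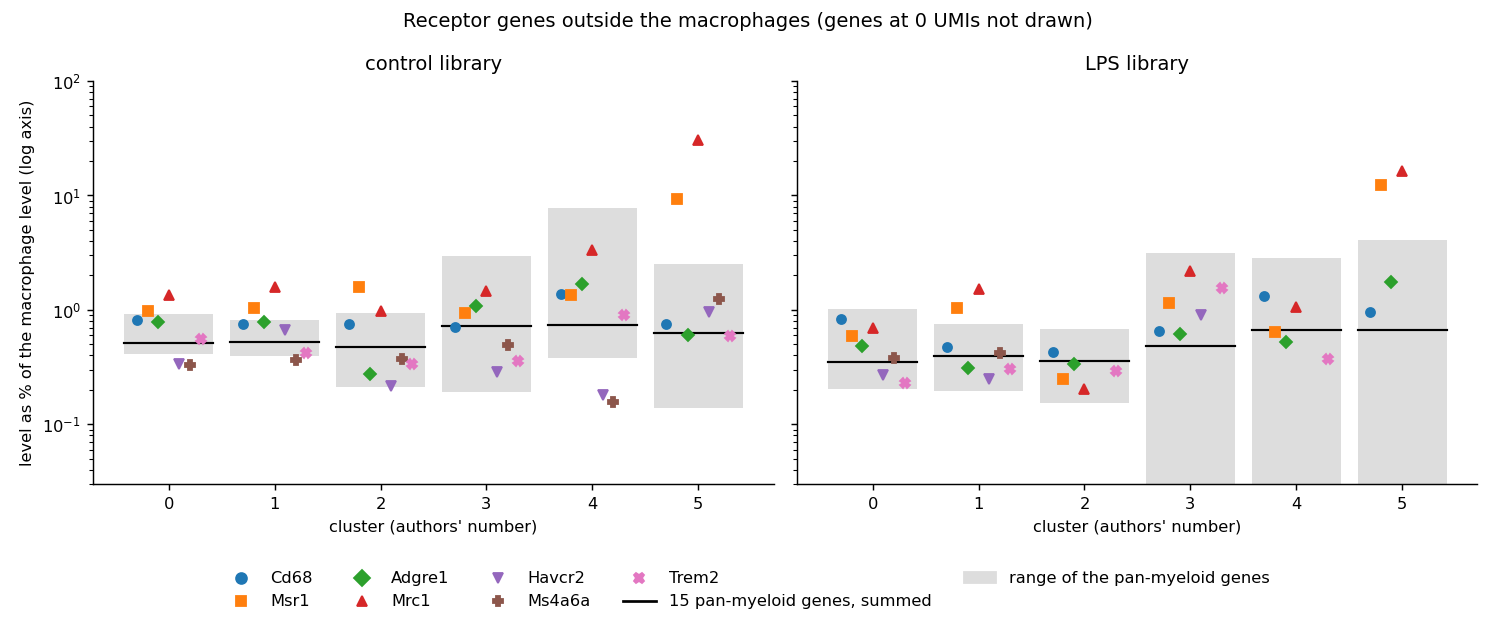
Level of 7 receptor genes in clusters 0 to 5 as a percentage of their macrophage level (log axis), by library. The black line is the sum of 15 general myeloid genes and the grey block the range of the single genes. *Mrc1*, at 30.4% and 16.5%, and *Msr1*, at 9.41% and 12.4%, lie above the grey block in cluster 5.

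*Msr1* in cluster 5 had 24 control and 27 LPS UMIs, or 5.65 CPM (3.62 to 8.40) against 5.93 (3.91 to 8.63). The ratio of 1.05 (0.584 to 1.90) includes 1. The level was 9.41% and 12.4% of that in macrophages, also above the single general myeloid genes. In cluster 0, 53 control and 21 LPS UMIs of *Msr1* gave a ratio of 0.486 (0.279 to 0.820). Those levels were 0.975% and 0.595% of that in macrophages. The 15 general myeloid genes there were also lower in the LPS library, summing to 46.0 and 25.7 CPM. Whether this *Msr1* is from the fibroblasts themselves was not tested.

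The remaining genes had little outside macrophages. *Trem2* in cluster 0 had 80 control and 14 LPS UMIs, a ratio of 0.215 (0.112 to 0.382), at 0.557% and 0.231% of the macrophage level. The 15 general myeloid genes there summed to 0.517% and 0.353% of theirs. *Adgre1* had 3 control and 14 LPS UMIs in cluster 5, 4 of the latter from 1 cell and with a ratio of 4.36 (1.22 to 23.6), and 22 and 9 in cluster 4. *Havcr2* had 15 and 4 UMIs in cluster 0, and *Ms4a6a* 17 and 10. These levels lie within or below the range of the single general myeloid genes in the same clusters.

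The genes whose profile over the 22 classes (11 clusters in 2 libraries) was most like that of each receptor are a description, since the classes share libraries and depth and 11303 genes were compared. For *Havcr2* they were *Ms4a7* (Pearson r of 0.99), *Ccr1* (0.99) and *RGD1563400* (0.98), and for *Ms4a6a* *Dok2*, *RGD1563400* and *C1qa* (each 0.99). For *Trem2* they were *Dok3* (0.98), *Ptprc* (0.97) and *Lrrc25* (0.97). *Adgre1* was most like *Cd53* (0.97), *LOC681325* (0.96) and *Hk3* (0.95), and *Cd68* like *Slc6a12* (0.95), *Adgre1* (0.94) and *Rac2* (0.94). *Msr1* was most like *AABR07035722.1* (0.91), *Trem1* (0.89) and *Fyb1* (0.89).

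The profile of *Lyve1* stood apart, with an r of -0.03 to 0.31 with the other 8 receptors, whereas *Mrc1* had an r of 0.74 to 0.81 with *Cd68*, *Msr1*, *Adgre1*, *Havcr2*, *Ms4a6a* and *Trem2*. Among the genes most like *Mrc1* were *Pstpip1* (0.91) and *Cyth4* (0.89). *Lyve1* was most like *Rasip1* (0.96), a gene of endothelial junctions and lumens, *Btg2* (0.94) and *Rapgef5* (0.93). For *Cd163* the nearest were *Otulin* (0.83), *Clec10a* (0.82) and *Gna15* (0.82), which rests on 8 control UMIs and 1 LPS UMI.

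Other scavenger and phagocytic receptors showed differences in both directions in macrophages. Of 36 listed genes 32 were in the table and 20 had at least 50 UMIs there. Their median log2 ratio was -0.11, against -0.30 for all genes. At least 2-fold lower were 4, against 12.1% of all genes, and at least 2-fold higher were 6, against 4.81%. The lowest were the lectins *Clec4a1* (86 control and 9 LPS UMIs, log2 ratio -2.86) and *Clec10a* (381 and 45, -2.74) and the Fc receptor *Fcgr1a* (1101 and 321, -1.45). The highest were *Clec4e*, which encodes the lectin Mincle (5 and 80, 4.20), *Olr1*, which encodes the lectin-like receptor of oxidised lipoprotein (22 and 78, 2.13), and *Clec4d* (229 and 572, 1.64). Under the class total none of the 8 receptors with at least 50 UMIs differed as much as any of these 6 genes. The 6 were picked as the extremes of 20 genes by this same ratio.

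The partners, ligands and sheddases of the 9 receptors were 13 genes, of which 10 had at least 50 UMIs. Their median log2 ratio was -0.43. Of them 1 was at least 2-fold lower and 0 at least 2-fold higher, against 12.1% and 4.81% of all genes. *Syk*, the kinase downstream of TYROBP, had 133 control and 37 LPS UMIs (-1.51). *Tyrobp*, the adaptor of TREM2, was at 3518 CPM in the control and 2103 in the LPS macrophages (-0.74). *Lgals9*, which encodes the HAVCR2 ligand galectin-9, had 176 and 88 UMIs (-0.67). *Adam17*, a sheddase of TREM2, had 116 and 125 UMIs (0.43), *Clu* a log2 ratio of 0.41 and *Bag6*, which binds HAVCR2 within the cell, 0.05. *Trem2*, its adaptor and the kinase were thus all lower in the LPS macrophages, beside a median of -0.30 for all genes.

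**Figure D5:**
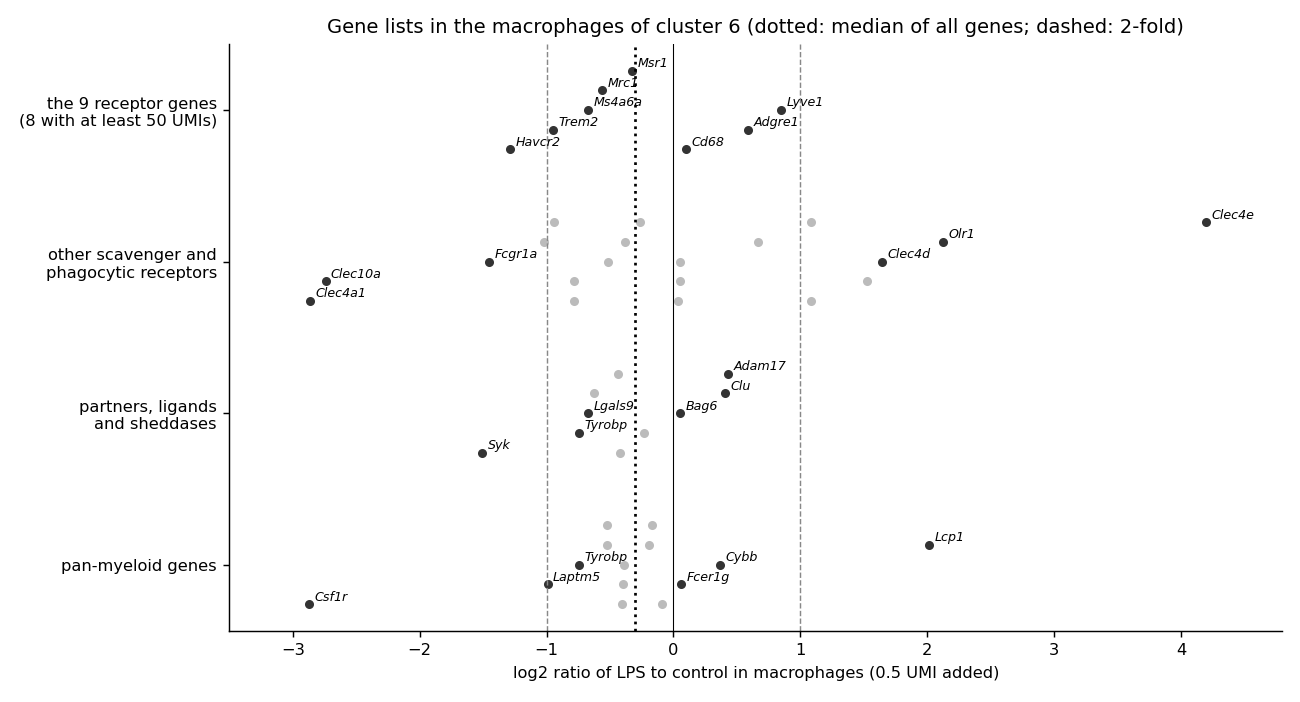
Log2 ratio of LPS to control in macrophages (0.5 UMI added) for the genes with at least 50 UMIs of the 9 receptors and of 3 other lists. Named points are all 8 receptors drawn and the 3 lowest and 3 highest of each other list, and the dotted line is the median of all genes. The 8 receptors drawn span -1.29 to 0.85, the other scavenger and phagocytic receptors -2.86 to 4.20.

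General myeloid genes differed in both directions. Of 15, 14 had at least 50 UMIs in macrophages, with a median log2 ratio of -0.39. Of these 1 was at least 2-fold lower and 1 at least 2-fold higher, against 12.1% and 4.81% of all genes. *Csf1r*, the receptor of the macrophage growth factor, had 737 control and 80 LPS UMIs (-2.87), with a thinned share of cells of 53.7% against 10.7%. *Lcp1* had 492 and 1586 (2.01). *Fcer1g*, an adaptor of Fc receptors, was at 0.06 and *Cybb*, an NADPH oxidase subunit, at 0.37, while *Laptm5* was at -0.99. The receptors' median of -0.44 lies beside that of these genes.

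Genes listed as markers of other blood cells were also counted in cluster 6, though not all of them were highest there. The monocyte list summed to 48.5 CPM in the control and 70 CPM in the LPS macrophages (151 and 174 UMIs), with 5 of 7 genes in the table and 2 of these at 0. Most of it was *Plac8*, with 119 and 164 UMIs and a ratio of 1.73 (1.36 to 2.21), while *F13a1* had 31 and 9. In cluster 8, which the authors left without a name, the monocyte list summed to 179 and 134 CPM. The neutrophil list summed to 23.4 and 33.0 CPM (73 and 82 UMIs), with 3 of 7 genes at 0 (*Cxcr2*, *Mpo* and *Elane*), and with *S100a8* at a ratio of 1.83 (1.16 to 2.89) and *Camp* at 0.835 (0.477 to 1.44). The dendritic cell list summed to 10.9 and 2.41 CPM (34 and 6 UMIs). Of these UMIs 27 and 5 were *Cd1d1*, at 8.67 and 2.01 CPM against 22.6 and 15.9 CPM in endothelial cluster 4. The mast cell list summed to 3.21 and 2.82 CPM (10 and 7 UMIs), all of them *Kit*. In cluster 4 *Kit* was at 51.2 and 52.4 CPM. The lymphocyte list summed to 0.321 and 0 CPM (1 and 0 UMIs). The part of these markers in the receptor levels was not tested.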

How the data were processed

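The authors deposited unnormalized UMI counts for every gene and cell barcode of 2 libraries of the 10X Genomics 3′ v2 kit, with a table of each cell's cluster and type. Per the submitters' processing notes Cell Ranger 2.2.0 and Seurat 2.3.4 were used; by the study's methods clustering used RunCCA and then FindClusters (resolution 0.5). The genome build and annotation behind the counts are not given in the sources used here. The 11531 control cells had 3682 to 70604 UMIs each and the 12689 LPS cells 2821 to 46594, and no further cell filter was applied.

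Counts were summed per cluster and library and divided by the class total to give CPM (Python 3.11.15, numpy 2.4.6, scipy 1.17.1, pandas 2.3.3). Intervals at 95% are exact Poisson (levels), exact conditional (ratios) and Clopper-Pearson (shares). A count of 0 is drawn at a limit of 3 UMIs. CPM values depend on the class total, so a few strongly expressed genes lower all others. Thinning drew 3000 UMIs per cell without replacement once (seed 1) and left out 79 shallower LPS cells. Log2 ratios across all genes had 0.5 UMI added and needed 50 UMIs in the class. UMI levels follow the 3′ end and were not compared between genes.

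Genes named are the 9 receptors, for each the 3 genes with the highest Pearson r of log2(CPM + 1) over 22 classes among genes with at least 200 UMIs, and up to 3 lowest and highest of each list (1 gene that the rule names is not reported here); marker genes of other cell types and the partners of named pairs are given by list. The receptors and lists were chosen with earlier results of these data known. Scrublet (scanpy 1.11.5, expected rate 8%) called 2 control cells (0.0173%) and 1 LPS cell (0.0079%) doublets, so it did not work here, and leaving out the 8% with the highest scores was an alternative. The ratio procedure was tested on simulated data. Other alternatives were cell filters, depth limits, thinning, other scalings, the mean of cells' own values and macrophages taken by general myeloid genes; those for clusters 4 and 5, and that without the 5% of macrophages with the most UMIs, were chosen after seeing the data.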

Additional observations from a re-analysis of the deposited data

How the results depend on the processing

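Of 286 alternative values for 50 results, 198 stayed within the counting interval, 86 moved and 2 turned. Of the 86, 49 were shares of macrophages with a UMI, mostly at another depth or without thinning. Such a share has to change with depth, so those moves say little about the results. The ratios below are log2 of LPS to control. With macrophages taken as cells of any cluster with at least 4 general myeloid genes, which added 39 control and 3 LPS cells from outside cluster 6, *Cd68* was at 0.47, *Msr1* 0.0567, *Adgre1* 0.92, *Mrc1* -0.17, *Ms4a6a* -0.29 and *Trem2* -0.57, and *Lyve1* turned to -0.60. In the control library the cells so taken held 71.7% of *Cd68* UMIs, against 71.5% in cluster 6. For *Lyve1* the shares were 4.39% and 0.918%. Kept to cluster 6, cells with at least 4 such genes had *Cd68* at 0.09, *Mrc1* at -0.55 and *Lyve1* at 0.86. *Lyve1* in macrophages also turned to -0.12 when the top 8% by Scrublet score were left out and was at 0.0028 as the mean of the cells' own values. In cells with 5000 to 15000 UMIs, *Cd68* was at -0.057, *Adgre1* 0.34, *Trem2* -1.32 and *Lyve1* in cluster 4 0.84. With median-of-ratios scaling *Cd68* was at 0.40, *Adgre1* 0.89, *Mrc1* -0.26, *Trem2* -0.65 and *Lyve1* in cluster 4 1.2. Without the 100 genes with the largest gains in the total, *Cd68* was at 0.35, *Adgre1* 0.84 and *Trem2* -0.70. In the 1 draw thinned to 3000 UMIs, *Adgre1* was at 1.05 and *Msr1* in cluster 5 at -0.97. The mean of the cells' own values, which also weights every cell alike but needs no draw, put them at 0.63 and 0.05. By that mean *Lyve1* in cluster 4 was at 0.98.

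The number of receptors at least 2-fold lower in macrophages, 1, became 2 without the highest Scrublet scores, at 5000 to 15000 UMIs, with under 1% fibroblast marker UMIs, without the 5% of cells with the most UMIs and with the mean of the cells' own values, 0 with macrophages by myeloid genes and with median-of-ratios scaling, and 3 when thinned or at a 1.5-fold limit. The number at least 2-fold higher, 0, became 1 with median-of-ratios scaling, without those 100 genes and when thinned, and 2 at a 1.5-fold limit. The thinned counts rest on 1 draw, and with the mean of the cells' own values the number higher stayed at 0. The cause of these moves was not tested. Except at the 1.5-fold limit, the shares of all genes under these alternatives were not computed, so the counts have no background beside them. Over 11 alternatives *Havcr2* ranged from -1.69 to -0.92, *Trem2* from -1.32 to -0.57, *Ms4a6a* from -1.05 to -0.29, *Mrc1* from -0.62 to -0.17 and *Adgre1* from 0.34 to 1.05. The -1.05 of *Ms4a6a* and the 1.05 of *Adgre1* came from the 1 thinned draw. By the mean of the cells' own values these genes were at -0.75 and 0.63. Over 7 alternatives in cluster 5 *Lyve1* ranged from 1.66 to 1.82 and *Mrc1* from -1.63 to -1.22. No paired analysis was possible because only 1 control and 1 LPS library were analysed. Depth limits *Cd163* and, outside macrophages, *Havcr2*, *Ms4a6a* and *Trem2*, and no alternative replaces a replicate library.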
